A study of Mus musculus with 6 samples.

Results

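Open chromatin was examined at 9 mouse genes of fatty acid synthesis, triglyceride synthesis and lipid droplets in liver samples labelled Ad-Dyrk1b or Ad-EGFP. The genes were Plin2, Srebf1, Acly, Dgat1, Fads2, Fasn, Acacb, Agpat2 and Lpin2, and every peak whose gene symbol in the deposited annotation was one of these was taken. This gave 25 peaks of the 22412 in the table, 14 of them promoter peaks and 11 in introns farther from the start, and these were peaks of 9 of the 10709 genes with a peak. A promoter peak was one that the authors' annotation classed as promoter or whose centre lay at most 3 kb from the start of its gene. All 25 passed the filter on low counts, which left 22051 peaks for testing.

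Accessibility was read by ATAC-seq, where a transposase fragments the open parts of the genome and tags the ends for sequencing. Nuclei came from lysed mouse livers, 3 samples labelled Ad-Dyrk1b, with Dyrk1b overexpression, and 3 labelled Ad-EGFP and given as control. Dyrk1b is a protein kinase, EGFP is a green fluorescent protein, and "Ad" is the usual shorthand for an adenoviral vector, although the labels do not spell it out. Read that way, both groups carried a vector and no sample lacked one. The promoter in the vector, the time after delivery and the strain, sex and age of the mice are not given in the labels used here. Whether each sample is its own mouse is not stated, so a p-value here reflects the scatter among 6 samples, some of which could be technical.

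Hepatocytes make fatty acids from carbohydrate by de novo lipogenesis. Citrate is split into acetyl-CoA, which is carboxylated to malonyl-CoA and built into palmitate, and fatty acids are then esterified stepwise to glycerol to give triglyceride, which is stored in droplets coated with perilipins. The transcription factor SREBP-1c, a product of Srebf1, drives many genes of the pathway in liver in response to insulin and liver X receptors.

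The 6 libraries held 762633 to 1267934 reads in peaks, with a median of 26 to 47 reads per peak. The promoter peaks of the 9 genes thus rest on few reads per library, and the spread below includes that counting error. Reads in peaks were a small share of the library totals behind the deposited RPKM values. In Ad-Dyrk1b 1, 2 and 3 that share was 1.67, 2.34 and 2.62%, and in Ad-EGFP 1, 2 and 3 it was 2.22, 1.89 and 1.97%. How much of the CPM at a peak is background was not tested. At Dyrk1b itself, a peak in exon 9 held 27, 30 and 53 reads in the Ad-Dyrk1b libraries and 10, 1 and 3 in the Ad-EGFP libraries (log2 change 2.64 ± 0.50 SE, adjusted p = 0.00981, edgeR's quasi-likelihood test), and a peak in exon 11 held 33, 28 and 39 reads in the Ad-Dyrk1b libraries and 9, 9 and 9 in the Ad-EGFP libraries, which did not pass (log2 change 1.61 ± 0.42 SE, adjusted p = 0.107). Reads from a vector with Dyrk1b sequence, if one was present, cannot be told apart there from open chromatin. As a check of the tissue, 7 of 14 hepatocyte marker genes had a peak, 9 peaks in all, and these summed to 398 to 424 CPM in Ad-Dyrk1b libraries and 382 to 599 CPM in Ad-EGFP libraries, CPM being counts normalised by TMM to the depth of each library within peaks. The 10 peaks of 7 of 26 markers of other liver cells summed to 382 to 425 CPM in Ad-Dyrk1b libraries and 331 to 387 CPM in Ad-EGFP libraries. The 3 peaks of the adipocyte markers Adipoq and Plin1, 2 of 5 listed, summed to 118 to 119 CPM in Ad-Dyrk1b libraries and 80.6 to 100.4 CPM in Ad-EGFP libraries. Defining markers with no peak in the table included Ttr and Cps1 of hepatocytes, Adgre1, Cd68, Clec4f and Ptprc of macrophages and leukocytes, Kdr and Lyve1 of endothelium, and Lep and Fabp4 of adipocytes. In these lists 8 of 9 hepatocyte marker peaks had a negative log2 change (median -0.43) and 8 of 10 other liver cell marker peaks a positive one (median 0.56). The 3 adipocyte marker peaks had a positive one (median 0.38). Over all tested peaks 49.6% were negative. No marker peak passed the test. At an unadjusted p under 0.05 (edgeR), 2 hepatocyte peaks were lower and 0 higher. Among the other liver cell peaks 1 was lower and 2 higher. The shares over all tested peaks were 7.72% lower and 6.44% higher. The part of the marker peaks in the results below was not tested.

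The sequences before 4 gene starts are shown because peaks with lower levels in Ad-Dyrk1b samples lie near them if the RefSeq and the deposited starts are the same site. These are promoter peaks at the middle Srebf1 start, Acly and Fads2, and an intron 1 peak at the downstream Srebf1 start. Each is the 250 bases before a RefSeq start, 5′ to 3′ on the gene's strand, from a promoter table of build GRCm38.p6 that held 8 of the 9 genes. The Srebf1 windows are the middle start (chr11:60220628-60220877, minus strand) and the downstream start within the gene (chr11:60210472-60210721, minus strand), the Acly window is chr11:100528001-100528250 (minus strand) and the Fads2 window is chr19:10101504-10101753 (minus strand). Capitals mark matches on either strand to GGGCGG, the GC box bound by Sp factors, and CCAAT, the box bound by NF-Y.
Srebf1 middle start: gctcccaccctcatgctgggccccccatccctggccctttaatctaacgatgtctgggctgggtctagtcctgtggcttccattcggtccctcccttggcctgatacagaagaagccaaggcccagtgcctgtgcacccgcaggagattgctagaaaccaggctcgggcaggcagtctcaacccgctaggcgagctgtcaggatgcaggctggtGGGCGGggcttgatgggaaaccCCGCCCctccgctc
Srebf1 downstream start: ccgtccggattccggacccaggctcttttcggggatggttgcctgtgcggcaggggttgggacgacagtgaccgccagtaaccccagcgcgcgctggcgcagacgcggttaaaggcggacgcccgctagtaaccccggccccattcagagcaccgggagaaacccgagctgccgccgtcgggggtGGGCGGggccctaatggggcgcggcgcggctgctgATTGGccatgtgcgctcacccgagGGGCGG
Acly: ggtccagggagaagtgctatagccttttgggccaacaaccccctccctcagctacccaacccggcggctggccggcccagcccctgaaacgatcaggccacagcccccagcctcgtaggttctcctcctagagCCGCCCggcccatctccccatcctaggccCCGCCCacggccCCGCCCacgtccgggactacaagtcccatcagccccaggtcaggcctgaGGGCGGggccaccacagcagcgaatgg
Fads2: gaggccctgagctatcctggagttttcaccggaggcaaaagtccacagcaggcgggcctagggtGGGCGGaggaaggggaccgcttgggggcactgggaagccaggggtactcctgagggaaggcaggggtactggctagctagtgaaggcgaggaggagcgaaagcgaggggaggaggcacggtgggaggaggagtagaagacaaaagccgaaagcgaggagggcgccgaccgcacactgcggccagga

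The middle Srebf1 window held 2 GC boxes, the downstream one 2 GC boxes and 1 CCAAT box, the Acly window 4 GC boxes and the Fads2 window 1 GC box. Both motifs are common, since GGGCGG was found in 32.7% and CCAAT in 33.8% of the same window of 32851 mouse promoters. Among the windows not printed, Fasn held 3 CCAAT matches, of which a pair overlap in CCAATTGG, Agpat2 held 2 overlapping GC boxes, Plin2, Acacb and the upstream Srebf1 start held 1 CCAAT box each, 2 of the Lpin2 starts held 1 GC box each, and the other Lpin2 start held 3 CCAAT boxes. The E-box CACGTG, present in 6.02% of all windows, was found at 1 Lpin2 start, and TCACNCCAC, a form of the sterol regulatory element present in 1.05%, was not found in the windows of the 8 genes. Other forms of these motifs were not searched for, so their absence from a window is not shown. A match is a description of the letters only. That the starts are the same site could not be checked, because gene positions in the deposited table do not match this build.

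Of the 25 peaks, 0 passed an adjusted p of 0.05 in edgeR's quasi-likelihood test, as did 0.0317% of all tested peaks, and 0 of those with an adjusted p passed under the other tools and settings that were run. DESeq2 gave an adjusted p for 9 of the 25 and none for the other 16, Plin2 among them. At an unadjusted p under 0.05, 7 of the 25 were lower in Ad-Dyrk1b samples, a share of 7.72% among all tested peaks, and 0 were higher, a share of 6.44% among all tested peaks. The 3 Ad-Dyrk1b libraries lay below all 3 Ad-EGFP libraries at 7 of the 25 (9.97% of all tested peaks) and above them at 1 (9.53% of all tested peaks). The genes had been picked with earlier results of these data known, so these counts are a description. The 7 with an unadjusted p under 0.05 were the upstream peak of Plin2, a 5′ UTR and an intronic peak of Srebf1, the upstream peaks of Acly and Dgat1, the 5′ UTR peak of Fads2 and a peak in intron 2 of Acacb. The 7 without overlap were the same but for Acly intron 6 in place of Acacb intron 2, and the peak higher without overlap was that of Fasn. In bulk liver, fewer cells of a type and less open chromatin per cell cannot be told apart.

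**Figure D1:**
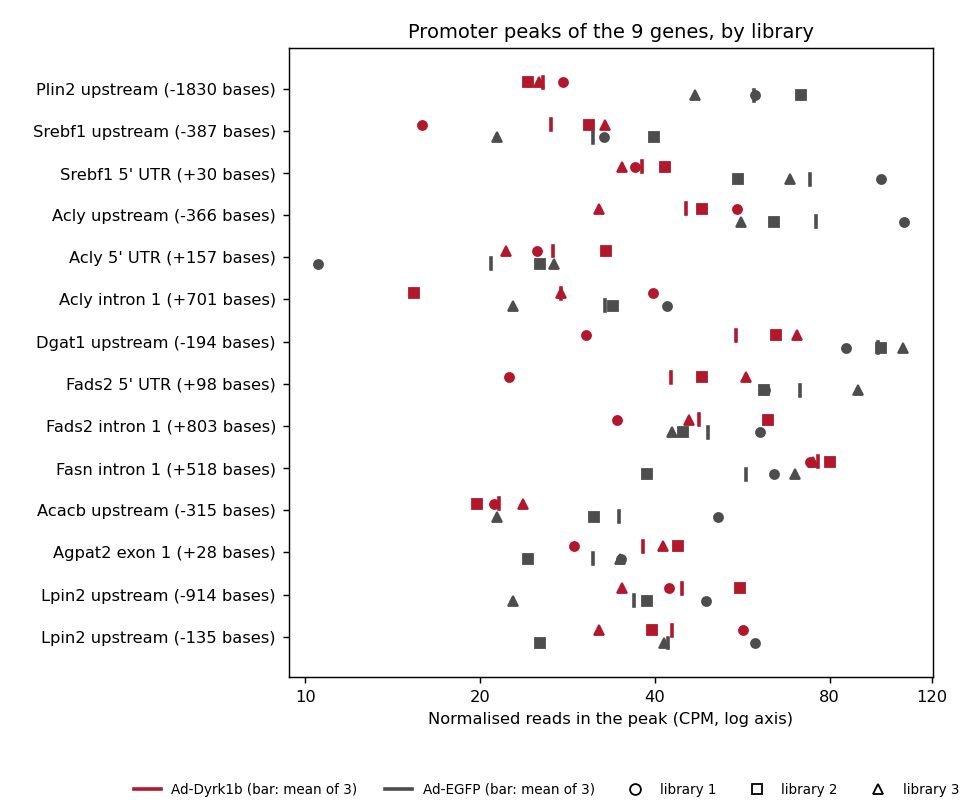
Accessibility of the 14 promoter peaks of the 9 genes in each library, in TMM-normalised CPM on a log axis, with Ad-Dyrk1b and Ad-EGFP libraries as points and the mean of each group as a bar. The Ad-Dyrk1b points lie below all Ad-EGFP points at 5 peaks, those of Plin2, Srebf1 (5′ UTR), Acly (upstream), Dgat1 and Fads2 (5′ UTR), and above them at the Fasn peak alone among the 14, against shares of 11.8% and 6.71% of all tested promoter peaks.

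Plin2 encodes perilipin 2, the main droplet coat protein of hepatocytes. Its single peak was centred 1830 bases upstream of the start (chromosome 4, 86589856 to 86590398 as deposited), and held 27.8, 24.2 and 25.2 CPM in Ad-Dyrk1b samples and 59.6, 71.4 and 46.9 CPM in Ad-EGFP samples. The Ad-Dyrk1b libraries were within a few CPM of each other and all lay below the lowest Ad-EGFP library. The means were 25.7 ± 1.84 CPM in Ad-Dyrk1b samples and 59.3 ± 12.3 CPM in Ad-EGFP samples (SD, n = 3 each), a ratio of 0.432. The log2 change was -1.21 ± 0.29 (SE), with an adjusted p of 0.0967 in edgeR's quasi-likelihood test, which does not pass 0.05. It ranged from -1.35 to -1.05 over the alternative settings. In the authors' deposited table the log2 ratio of the same peak was -1.05, with an FDR of 0.334. The peak reaches from 2101 to 1559 bases upstream, so it does not cover the start itself, and no other peak of Plin2 was in the table.

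Srebf1 encodes the SREBP-1 transcription factors, which are made as a and c forms from separate starts, the c form from a start within intron 1 of the longer form. It had 4 peaks. The peak at the 5′ UTR, centred 30 bases after the annotated start (chromosome 11, 60111122 to 60111678 as deposited), held 37.0, 41.7 and 35.2 CPM in Ad-Dyrk1b samples and 98.1, 55.7 and 68.3 CPM in Ad-EGFP samples. All 3 Ad-Dyrk1b values lay below the lowest Ad-EGFP value, and Ad-EGFP 1 was the highest library. The log2 change was -0.97 ± 0.26 (SE, adjusted p = 0.112, edgeR), and -0.71 without Ad-EGFP 1. The authors' deposited table gives a log2 ratio of -0.82 and an FDR of 0.427 for it.

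Another Srebf1 promoter peak, 387 bases upstream of another annotated start (60113687 to 60113902), was weaker, with 15.9, 30.7 and 32.9 CPM in Ad-Dyrk1b samples and 32.7, 39.9 and 21.4 CPM in Ad-EGFP samples. These groups overlapped, and the log2 change of -0.22 ± 0.35 (SE, adjusted p = 0.803, edgeR) was smaller than its error. Whether the difference at the 5′ UTR peak was larger than at this one was not tested.

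Within intron 1 of Srebf1, a peak centred 9997 bases after the start (60101168 to 60101699) held 38.3, 53.8 and 48.9 CPM in Ad-Dyrk1b samples and 67.7, 69.0 and 80.3 CPM in Ad-EGFP samples. The groups did not overlap here either (47.0 ± 7.92 CPM in Ad-Dyrk1b samples and 72.3 ± 6.96 CPM in Ad-EGFP samples, SD, n = 3 each; log2 change -0.61 ± 0.25 SE, adjusted p = 0.272, edgeR). This peak reaches from 9731 to 10262 bases after the annotated start, and the downstream RefSeq start, whose upstream sequence is printed above, lies 10156 bases after the middle one in GRCm38. If the annotated start is the middle RefSeq start, the intronic peak covers that downstream start. The next intronic peak, 11059 bases after the start, held 42.3, 38.4 and 52.0 CPM in Ad-Dyrk1b samples and 60.7, 43.6 and 54.9 CPM in Ad-EGFP samples, and the groups overlapped (log2 change -0.25 ± 0.27 SE, adjusted p = 0.684, edgeR).

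Acly encodes ATP citrate lyase, which supplies cytosolic acetyl-CoA, and had 5 peaks. The upstream peak, centred 366 bases before the start (chromosome 11, 100418854 to 100419530 as deposited), held 55.5, 48.3 and 32.1 CPM in Ad-Dyrk1b samples and 107, 64.1 and 56.2 CPM in Ad-EGFP samples. The highest Ad-Dyrk1b library lay just under the lowest Ad-EGFP library. The log2 change was -0.78 ± 0.26 (SE), adjusted p = 0.196 by edgeR, and it was -0.44 without Ad-EGFP 1. A peak in the 5′ UTR of Acly, 157 bases after the start, had overlapping groups, with 25.1, 32.9 and 22.2 CPM in Ad-Dyrk1b samples and 10.5, 25.4 and 26.8 CPM in Ad-EGFP samples (log2 change 0.36 ± 0.40 SE, adjusted p = 0.698, edgeR). In intron 6 of Acly the groups did not overlap (47.6, 50.5 and 45.9 CPM in Ad-Dyrk1b samples, 66.6, 65.3 and 58.9 CPM in Ad-EGFP samples, log2 change -0.41 ± 0.25 SE, adjusted p = 0.447, edgeR). The peaks in introns 1 and 20 had log2 changes of -0.28 ± 0.35 and -0.37 ± 0.34 (SE), within about their errors.

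Acacb encodes acetyl-CoA carboxylase 2, whose malonyl-CoA restrains the import of fatty acids into mitochondria. Its upstream peak (chromosome 5, 114284100 to 114284462 as deposited, 315 bases before the start) held 21.1, 19.8 and 23.7 CPM in Ad-Dyrk1b samples and 51.4, 31.5 and 21.4 CPM in Ad-EGFP samples. The groups overlapped, since Ad-EGFP 3 lay among the Ad-Dyrk1b libraries, and the log2 change of -0.69 ± 0.36 (SE, adjusted p = 0.374, edgeR) was -0.29 without Ad-EGFP 1. Of the 3 intronic Acacb peaks, that in intron 2 had 74.0, 65.9 and 50.5 CPM in Ad-Dyrk1b samples and 64.2, 93.2 and 106 CPM in Ad-EGFP samples, with overlapping groups (log2 change -0.48 ± 0.24 SE, adjusted p = 0.345, edgeR). The other two, in intron 1, had log2 changes of -0.31 ± 0.34 and 0.12 ± 0.38 (SE).

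Fasn encodes fatty acid synthase, which builds palmitate. Its only peak, in intron 1 and centred 518 bases after the start (chromosome 11, 120714491 to 120715220 as deposited), counted as a promoter peak. It held 74.0, 80.2 and 74.9 CPM in Ad-Dyrk1b samples and 64.2, 38.7 and 69.6 CPM in Ad-EGFP samples. All Ad-Dyrk1b values lay above the highest Ad-EGFP value, by a few CPM at the closest, and Ad-EGFP 2 was the low library. The means were 76.4 ± 3.32 CPM in Ad-Dyrk1b samples and 57.5 ± 16.5 CPM in Ad-EGFP samples (SD, n = 3 each), and the log2 change was 0.41 ± 0.24 (SE), adjusted p = 0.429 by edgeR. Without Ad-EGFP 2 it was 0.19. The authors' deposited table has a log2 ratio of 0.57 and an FDR of 0.556.

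Fads2 encodes a desaturase of polyunsaturated fatty acids and had 4 peaks. The 5′ UTR peak (chromosome 19, 10078724 to 10079301 as deposited) held 22.5, 48.3 and 57.4 CPM in Ad-Dyrk1b samples and 61.9, 61.7 and 89.7 CPM in Ad-EGFP samples. The groups did not overlap, although Ad-Dyrk1b 1 lay far below the other two Ad-Dyrk1b libraries (log2 change -0.68 ± 0.27 SE, adjusted p = 0.255, edgeR), and the log2 change was -0.41 without it. A peak 5226 bases into the gene held 22.5, 38.4 and 42.8 CPM in Ad-Dyrk1b samples and 24.5, 24.2 and 24.1 CPM in Ad-EGFP samples, so 2 of 3 Ad-Dyrk1b libraries were higher and the groups overlapped (log2 change 0.53 ± 0.34 SE, adjusted p = 0.472, edgeR). The peaks 803 bases into the gene and in intron 5 had log2 changes of -0.05 ± 0.27 and -0.04 ± 0.24 (SE).

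Triglyceride synthesis was represented by Agpat2, which acylates lysophosphatidic acid, Lpin2, a phosphatidate phosphatase, and Dgat1, which adds the last fatty acid. At Dgat1 the upstream peak (chromosome 15, 76395962 to 76396732 as deposited, centred 194 bases before the start) held 30.4, 64.8 and 70.4 CPM in Ad-Dyrk1b samples and 85.2, 98.0 and 107 CPM in Ad-EGFP samples. All Ad-Dyrk1b values were lower, with Ad-Dyrk1b 1 the lowest by far, and the log2 change was -0.77 ± 0.24 (SE), adjusted p = 0.167 by edgeR, and -0.51 without Ad-Dyrk1b 1. In intron 1 of Dgat1 the values were 30.4, 56.0 and 61.9 CPM in Ad-Dyrk1b samples and 32.7, 39.9 and 46.9 CPM in Ad-EGFP samples, which overlapped (log2 change 0.35 ± 0.29 SE, adjusted p = 0.582, edgeR). The exon 1 peak of Agpat2 held 29.1, 43.9 and 41.3 CPM in Ad-Dyrk1b samples and 35.0, 24.2 and 34.8 CPM in Ad-EGFP samples (log2 change 0.30 ± 0.32 SE). The 3 Lpin2 peaks had log2 changes between -0.01 and 0.25, and the groups overlapped at all 4 of these peaks of Agpat2 and Lpin2.

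**Figure D2:**
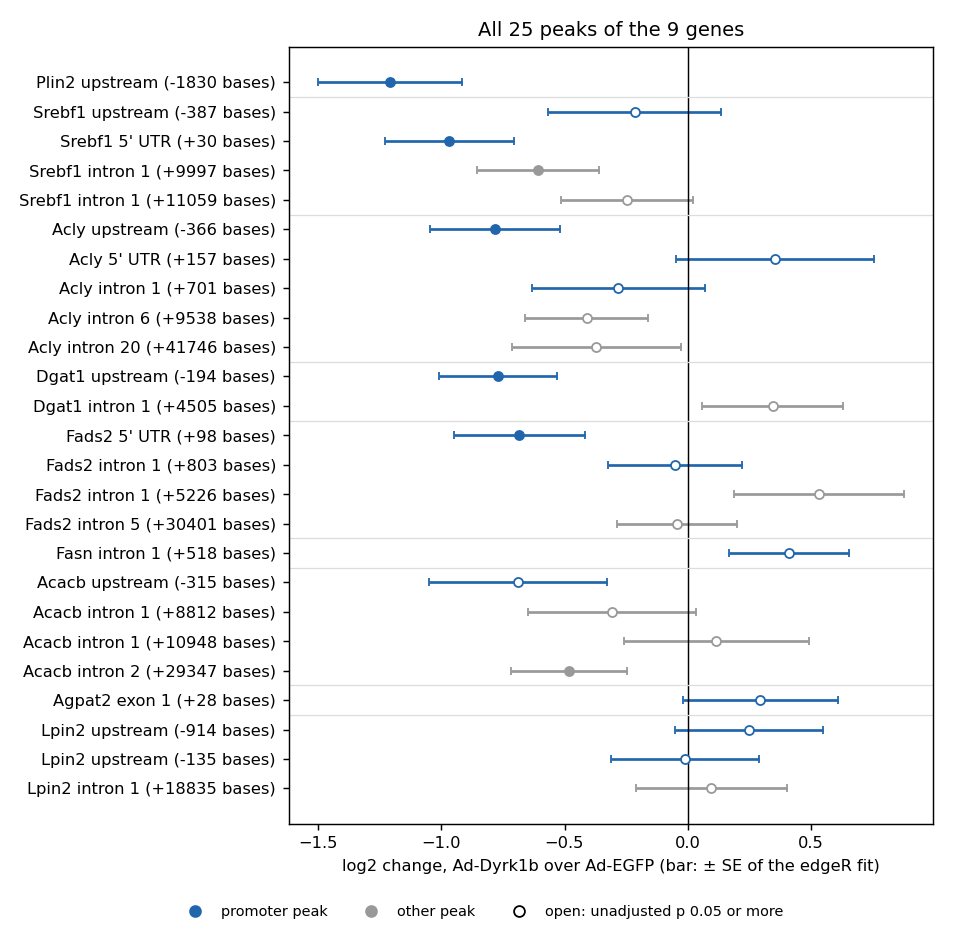
Log2 change (Ad-Dyrk1b over Ad-EGFP) of all 25 peaks of the 9 genes with bars of 1 SE of the edgeR fit, promoter peaks in blue and other peaks in grey, filled where the unadjusted p was under 0.05. The 7 filled points all lie below 0, from -0.48 at Acacb intron 2 to -1.21 at Plin2, and none of the 25 had an adjusted p under 0.05.

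Over the 14 promoter peaks, 10 log2 changes were negative and 4 positive, with a median of -0.25. Over all 9675 tested promoter peaks, 56.9% were negative and the median was -0.07, and over all tested peaks the median was 0.00. The 11 peaks outside promoters had 7 negative changes and a median of -0.25. Over all tested peaks outside promoters, 43.8% were negative and the median was 0.08. The median of the 11 was -0.07 without Ad-Dyrk1b 1 and -0.14 without Ad-EGFP 1, and that of the 14 was -0.13 without Ad-EGFP 1 and -0.45 without Ad-EGFP 3. Scaling by the library totals behind the deposited RPKM values moved the median of all peaks to 0.17, and 8 of the 14 promoter peaks were then negative, with a median of -0.08. Summed over all 25 peaks, accessibility came to 915, 1104 and 1055 CPM in Ad-Dyrk1b samples and 1307, 1203 and 1233 CPM in Ad-EGFP samples. The genes had been picked with earlier results known, and how often sums over other sets of genes separate like this was not computed.

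Because the peaks differ in length, levels were compared between genes per kb of peak. On this scale the 14 promoter peaks averaged 47.4 CPM per kb at Plin2 to 123 CPM per kb at the short upstream peak of Srebf1 in Ad-Dyrk1b samples, and 75.5 CPM per kb at an Lpin2 peak to 145 CPM per kb at the same Srebf1 peak in Ad-EGFP samples. Plin2 was the lowest of the 14 in Ad-Dyrk1b samples and averaged 109 CPM per kb in Ad-EGFP samples.

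Plin2 and Srebf1 were set against Fasn within each library, so that the scaling of a library cancels. The peaks cover unlike parts of their genes. That of Fasn reaches from 153 to 882 bases after the start, that of Plin2 lies wholly upstream, and the 5′ UTR peak of Srebf1 spans the annotated start. The log2 ratio of the Plin2 to the Fasn peak was -1.35, -1.64 and -1.49 in Ad-Dyrk1b samples and -0.11, 0.85 and -0.55 in Ad-EGFP samples. All 3 Ad-Dyrk1b ratios lay below the Ad-EGFP ones, with means of -1.49 ± 0.15 in Ad-Dyrk1b samples and 0.06 ± 0.71 in Ad-EGFP samples (SD, n = 3 each) and a difference of -1.56. The ratio of the Srebf1 5′ UTR peak to the Fasn peak was -0.96, -0.91 and -1.04 in Ad-Dyrk1b samples and 0.59, 0.50 and -0.03 in Ad-EGFP samples. These groups did not overlap either, with means of -0.97 ± 0.07 in Ad-Dyrk1b samples and 0.36 ± 0.33 in Ad-EGFP samples (SD, n = 3 each) and a difference of -1.33. Each had a two-sided exact permutation p of 0.1, the smallest that 3 against 3 samples allow, and 0.16 after Benjamini-Hochberg adjustment over the 8 comparisons of this kind. The comparisons of promoter to other peaks among these 8 were added after the values were seen. Leaving out 1 library at a time gave differences of -1.86 to -1.17 for Plin2 over Fasn. The Fasn log2 change of 0.41 enters both differences, and the genes had been chosen for this contrast with earlier results known.

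**Figure D3:**
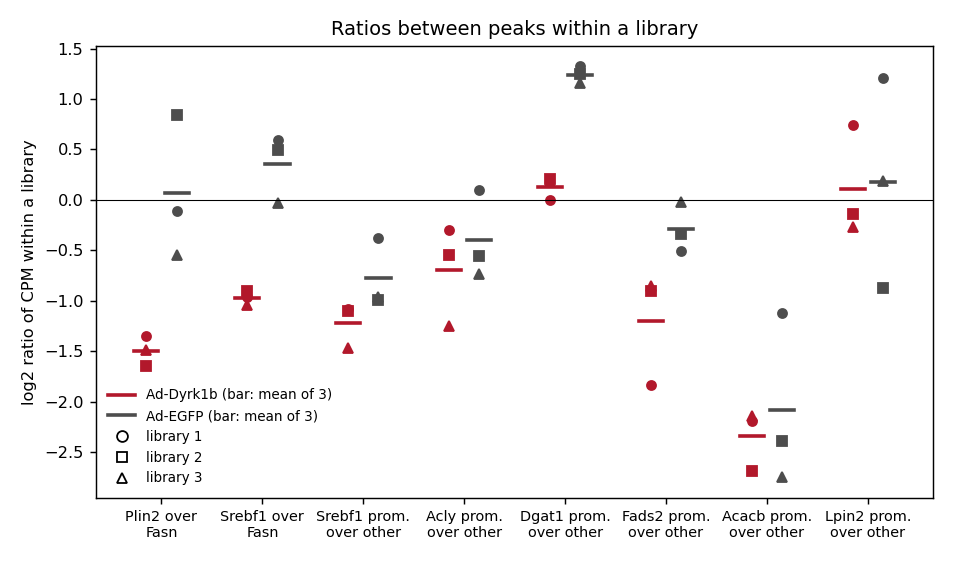
Within-library log2 ratios of the Plin2 and Srebf1 promoter peaks to the Fasn peak, and of the strongest promoter peak of Srebf1, Acly, Dgat1, Fads2, Acacb and Lpin2 to the sum of the same gene's peaks outside promoters, with Ad-Dyrk1b and Ad-EGFP libraries as points and group means as bars. The groups do not overlap in 5 of the 8 comparisons. The share among such ratios of other genes was not computed. In each of the 5 the numerator peak was already lower without overlap by itself. At Dgat1 the Ad-Dyrk1b ratios lie between 0.00 and 0.20 and the Ad-EGFP ratios between 1.16 and 1.32.

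For 6 genes the strongest promoter peak was also set against the sum of the gene's peaks outside promoters, a comparison added after the values were seen. At Dgat1 the log2 ratio was 0.00, 0.20 and 0.18 in Ad-Dyrk1b samples and 1.32, 1.25 and 1.16 in Ad-EGFP samples, a difference of -1.12. In CPM the promoter peak was thus above the intron 1 peak in each Ad-EGFP library, while in the Ad-Dyrk1b libraries they were close. The promoter peak is 771 bases long and the intron 1 peak 384. Per kb of peak the promoter and intron 1 peaks averaged 71.6 and 129 CPM in Ad-Dyrk1b samples. In Ad-EGFP samples they averaged 126 and 104 CPM per kb. The differences were -0.91 at Fads2 and -0.44 at Srebf1, also without overlap of the groups, and each of these 3 had the smallest exact permutation p of 0.1 (0.16 adjusted over the 8). In each of these 3 genes the promoter peak was already lower without overlap by itself, so these p-values are a description. The median log2 change was -0.07 over all tested promoter peaks and 0.08 over all tested peaks outside promoters. How often such ratios separate at other genes was not computed. The Srebf1 difference was -0.23 (exact permutation p = 0.3) with its promoter peaks summed and -0.24 without Ad-EGFP 1, and the Fads2 difference was -0.59 with its promoter peaks summed and also without Ad-Dyrk1b 1. At Acly, Acacb and Lpin2 the groups overlapped, with differences of -0.30, -0.25 and -0.06 and exact permutation p of 0.6, 0.9 and 1, and each was positive under some alternatives (up to 0.03, 0.23 and 0.45). The sum of the peaks outside promoters was 80.6, 92.2 and 101 CPM in Ad-Dyrk1b samples and 128, 113 and 135 CPM in Ad-EGFP samples at Srebf1, so there the intronic peaks lay on the same side as the promoter peak. At Fads2 that sum was 85.9, 92.2 and 106 CPM in Ad-Dyrk1b samples and 88.7, 78.6 and 91.1 CPM in Ad-EGFP samples, and these groups overlapped.

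A wider list of 77 other genes of lipogenesis, triglycerides and lipid droplets was read in the same way. It also held lipases such as Lipe and Mgll, the VLDL genes Apob and Mttp, and regulators such as Srebf2, Scap and Rxra. Of the 77, 59 had a peak and 43 had a promoter peak, 48 promoter peaks in all. Of these 48, 30 had a negative and 18 a positive log2 change, with a median of -0.11, near the -0.07 of all promoter peaks. None passed an adjusted p of 0.05 with edgeR, and at an unadjusted p under 0.05 there were 4 lower and 1 higher, beside 8.85% lower and 4.68% higher of all tested promoter peaks. The median was 0.07 with the RPKM library totals and 0.03 with loess normalization, so the sign of the list median depends on the scaling. The median of all tested promoter peaks was 0.10 and -0.003 under these scalings, so the RPKM totals shifted all promoter peaks. The list median was 0.00 without Ad-EGFP 3, with 24 of 48 negative, and -0.04 without Ad-Dyrk1b 3. The lowest p was at Cideb, a droplet protein that also acts in the lipidation of VLDL, with 39.6, 35.1 and 48.9 CPM in Ad-Dyrk1b samples and 84.1, 70.2 and 76.3 CPM in Ad-EGFP samples. The groups did not overlap (log2 change -0.88 ± 0.25 SE, adjusted p = 0.135, edgeR). Lower values were next seen at the lipases Lipe (-0.63 ± 0.28) and Mgll (-0.54 ± 0.25) and at the acyltransferase Agpat1 (-0.45 ± 0.22), all log2 changes ± SE. Another Agpat1 promoter peak went the other way (0.42 ± 0.29, adjusted p = 0.499, edgeR). On the higher side were Bscl2, which encodes the droplet assembly protein seipin (0.50 ± 0.25), the acyl-CoA synthetase Acsl3 (0.70 ± 0.37), the desaturase Scd2 (0.63 ± 0.34) and the nuclear receptor Pparg (0.40 ± 0.24). The adjusted p was 0.303 at Lipe, the lowest after Cideb, and 0.447 at Pparg (edgeR). Acsl3, Scd2 and Pparg had an unadjusted p of 0.062, 0.067 and 0.106 (edgeR). The groups overlapped at Mgll, Agpat1, Acsl3 and Pparg.

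**Figure D4:**
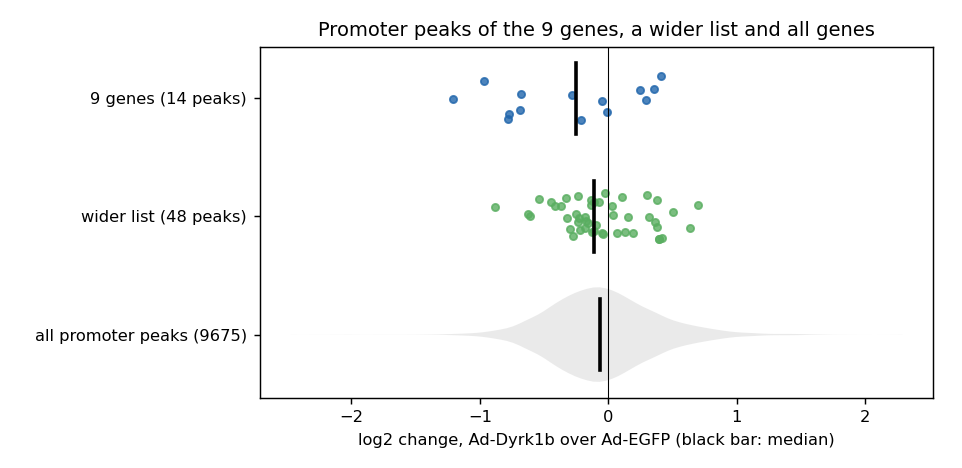
Log2 changes (Ad-Dyrk1b over Ad-EGFP) of promoter peaks, as points for the 9 genes and for the wider list of 77 lipid genes and as a density shape for all 9675 tested promoter peaks, with the median of each as a black bar. The medians are -0.25, -0.11 and -0.07, and the points of the 9 genes spread from -1.21 to 0.41.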

How the data were processed

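ATAC-seq peaks of 6 mouse liver samples, 3 Ad-Dyrk1b and 3 Ad-EGFP, were read from 1 table. Per the file headers the authors deposited whole read counts per peak and library over a merged peak set, and RPKM values made from them by peak length and a library total. The deposited table also holds, per the file headers, the authors' log2 ratio of group means, p-value and FDR. No FDR in it was under 0.05. Bowtie2, DiffBind, ChIPseeker and the build mm10 are named in the submitters' processing notes without versions. Not given in the sources used here are the peak caller, whether duplicates were removed, whether reads were shifted for the transposase, and how the deposited p-values were computed. The lowest count is 1, so 1 may stand for no reads, and per the series' text the raw data were lost.

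Of 10554 gene symbols on the same chromosome in a GRCm38.p6 table, 3.38% started within 2 kb of their deposited position. Coordinates are therefore printed as deposited, with no build named, and the RefSeq sequences carry their own build.

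Counts were fitted over all peaks with edgeR 4.0.16 in R 4.3.3 (TMM, filterByExpr, quasi-likelihood test, Ad-Dyrk1b against Ad-EGFP, no covariate), which kept 22051 peaks and removed 361. P-values were Benjamini-Hochberg adjusted over the tested peaks and peaks under 0.05 were called, 7 in all. Log2 ratios within a library came from CPM, and log2 changes are given with their SE. EdgeR estimated a common biological coefficient of variation of 19.9%. Libraries held 762633 to 1267934 reads in peaks, and all pairs differed by more than sampling noise. Alternatives were DESeq2 1.42.0, limma-trend (limma 3.58.1, log2 CPM with prior count 2), other scalings, no filter, a replicate block, a prior count of 0.5 or sums of promoter peaks for the ratios, promoters within 1 kb and leaving out each library.

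The 9 genes, the wider list and the marker lists were chosen with earlier results of these data known. Every peak of the 9 genes is reported, and from the wider list the 4 promoter peaks with the lowest p in each direction, 1 per gene. The other promoter peak of Agpat1 is given beside these. The ratios of promoter to other peaks were added after the values were seen.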

Additional observations from a re-analysis of the deposited data

How the results depend on the processing

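DESeq2 gave no adjusted p for 16245 peaks, among them 16 of the 25, 9 of these promoter peaks. Where an adjusted p was given, 0 of the 25 peaks passed 0.05 under the 14 alternatives, and all 187 such combinations of promoter peak and alternative stayed on the same side of that threshold. The lowest adjusted p was 0.0967 (Plin2) in the edgeR fit, and over the alternatives it ran from 0.0864 (Srebf1, DESeq2, which left Plin2, with a smaller unadjusted p, without an adjusted one) to 0.430 (Plin2, RPKM library totals, a scaling chosen after seeing the data). Called peaks over the whole table numbered 7 with edgeR, 19 with DESeq2, 1 with the RPKM library totals, 4 with library size only and 2 with limma-trend. Leaving out 1 library at a time gave 0 (without Ad-Dyrk1b 3) to 10 (without Ad-Dyrk1b 1), with 1 without Ad-EGFP 3 and 3 without Ad-EGFP 1 or Ad-EGFP 2. With the RPKM library totals, 18 of the 48 promoter peaks of the wider list had a negative log2 change, against 30 in the edgeR fit. The median of all tested promoter peaks moved from -0.07 to 0.10 with it. This scaling applies 1 factor to all peaks of a library, and the median of all tested peaks moved from 0.00 to 0.17. Why the library totals and the reads in peaks differ in proportion between libraries was not tested.

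The samples share numbers but same-numbered libraries did not deviate together (correlations of -0.01, -0.01 and 0.01). With the replicate block 7 peaks were called, 0 of them among the 25, 9 of the 14 promoter peaks and 30 of the 48 of the wider list had a negative log2 change, and the Plin2 log2 change was -1.18 with an adjusted p of 0.103. The differences of Plin2 and Srebf1 to Fasn were -1.56 and -1.33 under the block, as without it, with an exact permutation p of 0.25, the smallest that 3 pairs allow. Depth was a median of 26 to 47 reads at a peak, so a small difference at a peak rests on few reads.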

Other observations

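Over all 121 peaks of the wider list of 77 lipid genes, promoter or not, 76 log2 changes were negative and 45 positive, with a median of -0.13. Over all tested peaks 49.6% were negative and the median was 0.00. None passed an adjusted p of 0.05 with edgeR, and at an unadjusted p under 0.05 there were 14 lower and 8 higher, beside 7.72% lower and 6.44% higher of all tested peaks. Summed over these 121 peaks, accessibility was 5390, 5541 and 5501 CPM in Ad-Dyrk1b samples and 6067, 5800 and 6094 CPM in Ad-EGFP samples, so the Ad-Dyrk1b libraries lay below all Ad-EGFP libraries. How often sums over other genes separate in this way was not computed. With the RPKM library totals the median of the 121 was 0.03, beside 0.17 over all tested peaks. Genes of the list with no peak in the table included the desaturase Scd1, the elongase Elovl6, the lipase inhibitor G0s2 and the lipogenic regulator Thrsp.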
